A study of Prunus persica and Prunus armeniaca with 129 samples.

Results

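Floral buds of the high chill peach cultivars A318 and A323 were compared after 100 chill hours (CH) and at 0 CH. The members were chosen by their labels: every floral bud library of either cultivar with the stage 100 CH or 0 CH, which gave 14 of the 129 libraries in the series. The 100 CH libraries were A318 (n = 3) and A323 (n = 4), and the 0 CH libraries were A318 (n = 3) and A323 (n = 4). The trees were untreated and grew outdoors in South Carolina, where cold accumulated over a single winter. Both cultivars came from 1 F2 family, the progeny of a low chill and a high chill peach, and were propagated as clones, so each cultivar is a single genotype. The 0 CH buds were picked in mid-October and the 100 CH buds in late November. Chill, day length, temperature and calendar date therefore cannot be told apart in this comparison. The low chill cultivars A209 and A340 were sampled at the same chill totals (16 libraries). They are used below only to show which changes were shared and where high chill buds differed.

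Buds of peach are formed in summer, stop growing in autumn and stay dormant until they have spent enough hours in the cold, a number that differs between cultivars and is called the chill requirement. At 100 chill hours a high chill bud is still far from meeting it. The dormancy-associated MADS-box (DAM) genes, a tandem array of MADS-box transcription factors related to Arabidopsis SVP, are known as regulators of growth cessation and dormancy in peach. Autumn is also the time when woody tissue hardens: dehydrins and other late embryogenesis abundant proteins accumulate, raffinose-type sugars are made and membrane lipids become less saturated.

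The 14 libraries held between 4567221 and 25349350 gene counts (median 14885866), and 19458 to 25829 of 26872 genes had at least 1 count. Levels are given as CPM, counts per 1000000 of the library total after scaling by the trimmed mean of M-values (TMM), and log2 fold changes are 100 CH over 0 CH with their standard error (SE). A gene is said to have risen or fallen when its Benjamini-Hochberg adjusted p in edgeR's quasi-likelihood test was under 0.05. The floral markers AP1, AG, AP3, LFY, AGL6 and STK were detected throughout, and their summed level was 168.4 to 225.4 CPM at 100 CH and 96.17 to 320.2 CPM at 0 CH. Some 0 CH libraries stood apart. At genes that separated the cultivars in libraries from later stages, the library labelled A323 0 CH replicate 4 was nearer to A318 at 5 of 5 A318-specific genes, as 4 or 5 were in the A318 libraries and at most 1 in the other A323 libraries. It was nearer to A323 at 4 of 15 A323-specific genes, against 12 to 15 in the other A323 libraries and 2 to 5 in the A318 libraries. The library was kept under its label, and named calls that were lost without it, and counts or fold changes that moved by over 1.5 times, are given both ways. A323 0 CH replicate 1 had the fewest counts, the lowest TMM factor (0.574, against 0.795 to 1.34 in the other 0 CH libraries) and the lowest mean correlation with its own group (0.877, against 0.912 to 0.966 for the other libraries). It also had the highest summed level of green-tissue markers (1259 CPM, against a median of 341.8 CPM at 0 CH and 334.7 to 575.6 CPM at 100 CH). The next lowest TMM factor (0.795) was that of A318 0 CH replicate 1. Of the genes that fell more than 2-fold, 653 had their highest 0 CH value in that library and 585 in A323 0 CH replicate 1. The part of these libraries in the results was not tested beyond leaving each out. Buds are mixed tissue, so fewer cells of a type and less RNA per cell cannot be told apart.

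Between the stages a large share of the transcriptome moved, more of it down than up. Of 18561 genes tested, 2771 rose (14.9%) and 3564 fell (19.2%), and with a change of more than 2-fold as well 852 rose (4.59%) and 2419 fell (13%). The median log2 fold change of all genes tested was −0.07. At 1124 genes (6.06%) all 7 libraries of 100 CH were above all 7 of 0 CH, and at 1102 genes (5.94%) all were below. Rises were the more uniform: of the genes that rose more than 2-fold, 67.6% had no overlap between the stages, against 37.5% of those that fell. The genes that rose also had the higher median level, 24.8 CPM over the 14 libraries against 8.26 CPM for those that fell. Replicates were more spread at 0 CH. The median SD of log2 CPM between replicates was 0.299 in A318 and 0.312 in A323 at 100 CH, and 0.454 in A318 and 0.522 in A323 at 0 CH. It was 0.308 in A323 at 0 CH without replicate 1 and 0.515 without replicate 4. Without the library labelled A323 0 CH replicate 4, 2443 genes rose and 3262 fell, and 5486 of the 6335 called genes were called again, all in the same direction. Without A323 0 CH replicate 1, 3359 rose and 3744 fell.

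Most of the cold and dehydration protection genes tested rose. Of 15 on the list, 14 passed the filter on low counts and 9 rose (14.9% of all genes), 1 fell (19.2% of all genes) and 4 did not pass the test. Their median log2 fold change was 1.38, against −0.07 over all genes tested. Without the library labelled A323 0 CH replicate 4, 8 rose, and without A323 0 CH replicate 1, 9 rose. CAP160, named after a cold acclimation protein of spinach, ranged from 2162 to 2985 CPM at 100 CH (median 2530) and from 85.28 to 196.1 CPM at 0 CH (median 106). The change was 4.41 ± 0.25 (SE) on the log2 scale (adjusted p = 1.9e-08), and the lowest 100 CH library stood far above the highest 0 CH library. A late embryogenesis abundant (LEA) gene, of a family that protects proteins and membranes in drying cells, ranged from 1805 to 4188 CPM at 100 CH (median 3125) and from 234.7 to 503.6 CPM at 0 CH (median 292.5). It rose by 3.24 ± 0.27 (adjusted p = 4.65e-07), again with no overlap.

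COR47, a dehydrin that accumulates in the cold in Arabidopsis, had 7717 to 22030 CPM at 100 CH (median 17820) and was already abundant at 0 CH, with 4483 to 8167 CPM (median 5755). It rose by 1.47 ± 0.29 (adjusted p = 0.00101). The stages overlapped at 1 library of each, since A323 100 CH replicate 3 had 7717 CPM and A318 0 CH replicate 1 had 8167 CPM. CAP160, LEA and COR47 together took 1.23% to 2.7% of all gene counts at 100 CH (median 2.42%) and 0.398% to 0.816% at 0 CH (median 0.68%). The lowest share at 100 CH was that of A323 replicate 3.

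The rise of largest fold on the list was that of ELIP1, an early light-induced protein, which in Arabidopsis is a chlorophyll-binding protein of the thylakoid made under light stress and cold. It had 42.43 to 165.6 CPM at 100 CH (median 68.24) and 0.694 to 1.95 CPM at 0 CH (median 1.53), a change of 5.86 ± 0.33 (adjusted p = 1.77e-08). The high value of 165.6 CPM came from A323 100 CH replicate 3, the library in which COR47 was lowest. HVA22D, of a family induced by abscisic acid and stress in barley, ranged from 231.2 to 364.8 CPM at 100 CH and from 58.41 to 141.9 CPM at 0 CH (1.76 ± 0.23, adjusted p = 3.02e-05). GolS4, a galactinol synthase that feeds the raffinose pathway, ranged from 12.33 to 32.63 CPM at 100 CH and from 2.26 to 12.06 CPM at 0 CH (1.55 ± 0.28, adjusted p = 0.000586). The gap was small, 12.33 CPM in A318 100 CH replicate 2 against 12.06 CPM in A318 0 CH replicate 1. Its paralogue GolS2 had 11.98 to 17.68 CPM at 100 CH and 6.96 to 17.63 CPM at 0 CH and did not pass the test (0.45 ± 0.19, adjusted p = 0.0827). It did pass without A323 0 CH replicate 2 (0.58, adjusted p = 0.0253).

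Of the transcription factors on the list, a DREB2C homologue (Prupe.2G256900), whose Arabidopsis counterpart binds the dehydration-responsive element, ranged from 90.18 to 120.2 CPM at 100 CH and from 27.03 to 46.45 CPM at 0 CH (1.53 ± 0.15, adjusted p = 1.91e-06). The other DREB2C homologue (Prupe.3G223300) fell slightly, with 14.35 to 22.19 CPM at 100 CH and 20.37 to 28.75 CPM at 0 CH (−0.43 ± 0.13, adjusted p = 0.0207). ICE1, which in Arabidopsis acts upstream of the CBF cold regulators, ranged from 11.87 to 24.86 CPM at 100 CH and from 10.24 to 18.7 CPM at 0 CH (0.49 ± 0.17, adjusted p = 0.0326). That call was lost without the library labelled A323 0 CH replicate 4 (0.42, adjusted p = 0.0693) and without any 1 of 9 others (A318 100 CH replicates 3 and 4, A323 100 CH replicates 1, 2 and 3, A318 0 CH replicates 1, 2 and 3, and A323 0 CH replicate 2), where the adjusted p was at least 0.0508. A senescence and dehydration-associated gene (Prupe.7G220100) had 311.6 to 386.4 CPM at 100 CH and 94.32 to 198.5 CPM at 0 CH (1.28 ± 0.18, adjusted p = 6.56e-05). HVA22A (−0.33 ± 0.21) and homologues of stress enhanced proteins 1 (−0.49 ± 0.23) and 2 (−0.14 ± 0.31) did not pass, and the LEA domain gene Prupe.1G554000 stayed below 1 CPM in every library and was not tested.

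**Figure D1:**
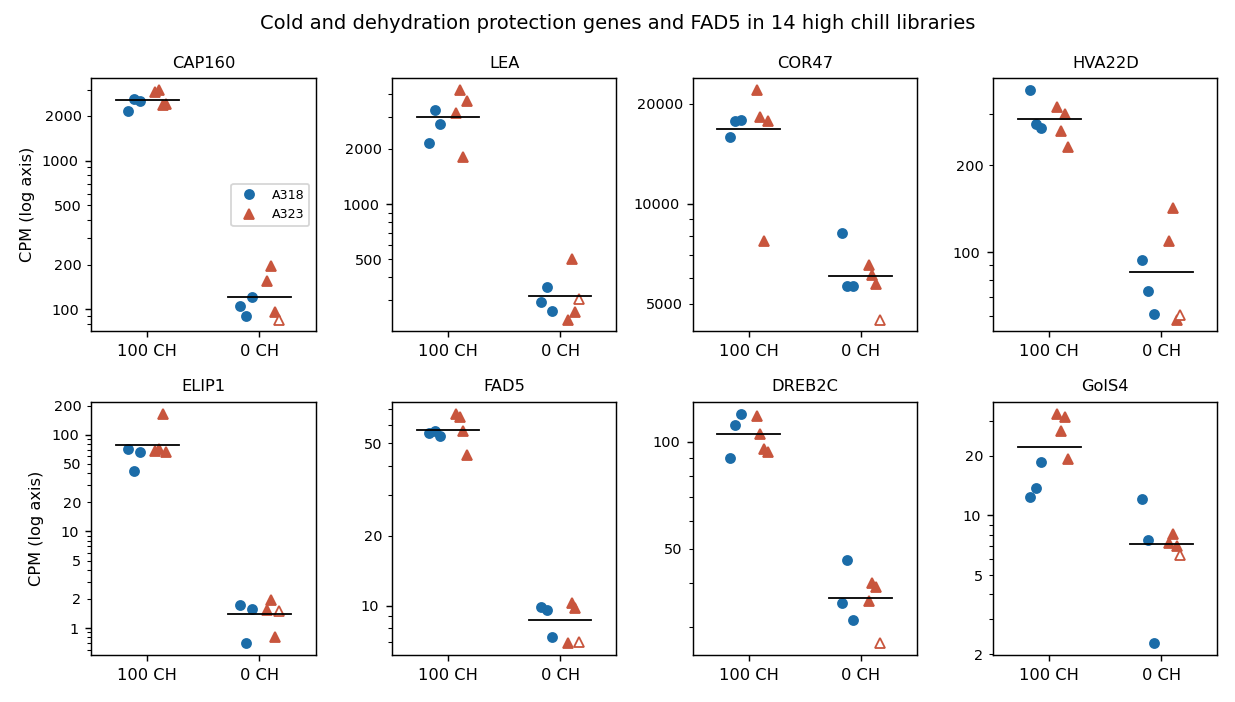
Level of 8 genes in each of the 14 high chill libraries, in CPM on a log axis, with 100 CH left and 0 CH right; circles are A318, triangles A323, the open triangle is the library labelled A323 0 CH replicate 4 and the bar is the mean of 7 libraries. CAP160 sat between 2162 and 2985 CPM at 100 CH and between 85.28 and 196.1 CPM at 0 CH, whereas COR47 overlapped through a single A323 library at 7717 CPM.

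The DAM genes did not move as a block. DAM4 and DAM5 more than doubled, DAM3 and DAM6 rose by less, and DAM1 and DAM2 fell. Of 7 genes on the list (DAM1 to DAM6 and SVP) 4 rose and 2 fell (14.9% and 19.2% of all genes), and the median log2 fold change was 0.53. The rises numbered 3 without the library labelled A323 0 CH replicate 4. DAM4 ranged from 427.9 to 600.1 CPM at 100 CH (median 521.8) and from 116.4 to 184.2 CPM at 0 CH (median 149.4), a rise of 1.76 ± 0.17 (adjusted p = 2.12e-06). DAM5 ranged from 626.1 to 948.7 CPM at 100 CH (median 796.6) and from 230.9 to 397.3 CPM at 0 CH (median 377.9), a rise of 1.18 ± 0.19 (adjusted p = 0.000189). In both genes every 100 CH library was above every 0 CH library, in A318 and in A323. The lowest DAM5 value at 0 CH, 230.9 CPM, belonged to A323 replicate 1, and without that library the rise was 1.1 (adjusted p = 4.05e-05).

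DAM6 had 1377 to 1857 CPM at 100 CH (median 1611) and 914 to 1355 CPM at 0 CH (median 1089). The lowest library at 100 CH was just above the highest at 0 CH, both from A318. The rise of 0.53 ± 0.18 passed the test narrowly (adjusted p = 0.0339) and was lost when any 1 of 9 libraries was left out: A318 100 CH replicate 3 or 4, A323 100 CH replicate 2, 3 or 4, A318 0 CH replicate 2 or 3, A323 0 CH replicate 2, or the library labelled A323 0 CH replicate 4. The rise was then 0.5 to 0.56, with an adjusted p of 0.0528 to 0.0734. DAM3 ranged from 71.64 to 114.2 CPM at 100 CH and from 53.93 to 62.59 CPM at 0 CH (0.65 ± 0.14, adjusted p = 0.00232). It passed in neither cultivar when each was fitted alone.

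DAM1, at the other end of the array, ranged from 2.63 to 4.73 CPM at 100 CH and from 5.4 to 12.49 CPM at 0 CH, a fall of 1.11 ± 0.20 on the log2 scale (adjusted p = 0.000649) with no overlap. DAM2 was close to the limit of detection: its raw counts were 1 to 9 in the 100 CH libraries and 0 to 61 in the 0 CH libraries, with the 0 in A323 0 CH replicate 1. Its fitted change was −2.63 ± 0.53 (adjusted p = 0.00128). SVP had 52.38 to 94.37 CPM at 100 CH and 54.92 to 67.6 CPM at 0 CH and did not pass the test (0.27 ± 0.14, adjusted p = 0.146). The 6 DAM genes are tandem copies, and reads shared between copies could shift counts from one to another.

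**Figure D2:**
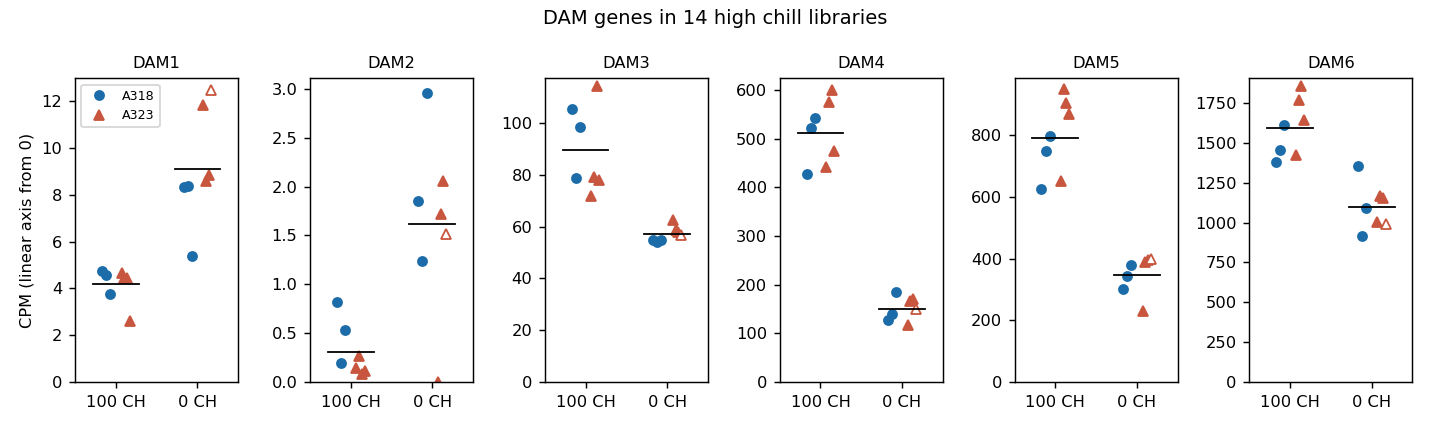
Level of DAM1 to DAM6 in each of the 14 high chill libraries, in CPM on a linear axis from 0, with 100 CH left and 0 CH right; circles are A318, triangles A323, the open triangle is the library labelled A323 0 CH replicate 4 and the bar is the mean of 7 libraries. DAM4 lay between 427.9 and 600.1 CPM at 100 CH and between 116.4 and 184.2 CPM at 0 CH, and DAM6 at 1377 to 1857 CPM and 914 to 1355 CPM.

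Among genes of gibberellin (GA) metabolism, GA3OX1 and GA2OX rose. GA3OX1, which makes the active hormone, ranged from 107.8 to 196.4 CPM at 100 CH (median 140.7) and from 13.22 to 76.33 CPM at 0 CH (median 19.41). It rose by 2.28 ± 0.35 (adjusted p = 0.000134), and the high value at 0 CH came from A323 replicate 1, without which the rise was 2.75 (adjusted p = 6.82e-07). GA2OX, of the enzyme class that inactivates gibberellin, ranged from 288.2 to 340.7 CPM at 100 CH (median 320.3) and from 87.39 to 139.2 CPM at 0 CH (median 135). It rose by 1.38 ± 0.17 (adjusted p = 1.58e-05), with a narrow spread at 100 CH and no overlap. Both homologues of GA2OX8, of the same enzyme class, missed the threshold (Prupe.1G344000 at −1.1 ± 0.52, adjusted p = 0.112, and Prupe.4G204600 at 0.29 ± 0.14, adjusted p = 0.111). Of the genes for gibberellin-regulated GASA-type peptides 4 fell, 1 rose and 1 did not pass. The largest fall was that of Prupe.5G193400, with 0.228 to 2.05 CPM at 100 CH and 1.38 to 8.7 CPM at 0 CH (−3.05 ± 0.47, adjusted p = 0.000141). Prupe.4G257500 fell by 1.95 ± 0.26 (adjusted p = 4.75e-05) with no overlap, and Prupe.3G279800 by 1.61 ± 0.46 (adjusted p = 0.0138). Without A323 0 CH replicate 1 the fall of Prupe.3G279800 was smaller (−0.86, adjusted p = 0.00319). Prupe.3G161500 fell by 1.14 ± 0.28 (adjusted p = 0.0051). In all, 3 of 10 gibberellin genes tested rose and 4 fell, with a median of −0.72, where 14.9% of all genes rose and 19.2% fell. Without the library labelled A323 0 CH replicate 4, 2 rose and 4 fell.

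Of 5 abscisic acid genes tested, 4 fell (19.2% of all genes) and none rose (14.9%), and 3 fell without the library labelled A323 0 CH replicate 4. Those that fell by more than 2-fold were at or near 1 CPM: ABA1, the zeaxanthin epoxidase of the hormone's synthesis, at 0.0708 to 1.23 CPM at 100 CH and 0.471 to 1.74 CPM at 0 CH (−1.5 ± 0.53, adjusted p = 0.0368), and the transcription factor MYB102 (−1.43 ± 0.49, adjusted p = 0.0325). Both calls were lost when 1 of several libraries was left out: A318 100 CH replicate 3 or 4, A323 100 CH replicate 1 or 2, or A318 0 CH replicate 3 for both, A318 0 CH replicate 2 as well for ABA1, and A323 0 CH replicate 2 or 3 as well for MYB102. The adjusted p was then 0.0505 to 0.0854 for ABA1 and 0.0501 to 0.0743 for MYB102. ABA1 no longer passed the filter on low counts without the library labelled A323 0 CH replicate 4.

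Auxin genes moved in both directions. Of 20 tested, 6 rose and 3 fell (14.9% and 19.2% of all genes) and 11 did not pass, with a median of −0.04, and 4 rose without the library labelled A323 0 CH replicate 4. The rises of more than 2-fold were those of homologues of auxin efflux carriers: PIN5, which in Arabidopsis sits in the endoplasmic reticulum, at 1.49 to 9.7 CPM at 100 CH and 0 to 1.91 CPM at 0 CH (3.65 ± 0.77, adjusted p = 0.00179, and 4.3 without A323 0 CH replicate 1), then Prupe.5G004300 (1.54 ± 0.30), Prupe.5G004100 (1.5 ± 0.33) and Prupe.1G071800 (1.16 ± 0.21). The efflux carrier homologues PIN3 (−0.79 ± 0.34, adjusted p = 0.0877) and PIN6 (−0.04 ± 0.26, adjusted p = 0.922) did not pass. The influx carrier LAX2 (Prupe.1G503100) fell by 1.18 ± 0.34 (adjusted p = 0.0144) and its homologue Prupe.8G163100 did not pass (0.12 ± 0.29, adjusted p = 0.789), and the auxin-response repressor IAA26 (Prupe.1G445000) fell to 1.6 to 5.43 CPM at 100 CH, against 7.67 to 24.2 CPM at 0 CH (−2.04 ± 0.29, adjusted p = 8.35e-05). Of 12 cytokinin, ethylene and jasmonate genes tested, 1 rose and 2 fell (14.9% and 19.2% of all genes), and none rose without the library labelled A323 0 CH replicate 4. Among the falls was the cytokinin response factor CRF2 (−1.19 ± 0.35, adjusted p = 0.0151).

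Of 14 floral identity genes tested 4 rose and 1 fell (14.9% and 19.2% of all genes). CAL, a MADS-box gene that specifies floral meristems in Arabidopsis, ranged from 215.4 to 266.9 CPM at 100 CH (median 225.2) and from 14.79 to 45.03 CPM at 0 CH (median 38.02). The rise was 2.84 ± 0.22 (adjusted p = 2.57e-07), with the 7 libraries of 100 CH close to each other. The floral organ genes AP3 (0.84 ± 0.14, adjusted p = 0.000252), AG (0.69 ± 0.18, adjusted p = 0.00718) and AP1 (0.59 ± 0.15, adjusted p = 0.00686) rose by less than 2-fold. The other floral markers, LFY, AGL6 and STK, did not pass the test, and LFY had a lower mean level at 100 CH than at 0 CH. OFP2, an ovate-type repressor, fell to 9.63 to 16.96 CPM at 100 CH, against 8.7 to 62.72 CPM at 0 CH (−1.5 ± 0.35, adjusted p = 0.00336). The summed floral markers overlapped between the stages (168.4 to 225.4 CPM at 100 CH and 96.17 to 320.2 CPM at 0 CH), and their part in these results was not tested. The 6 markers of the pollen wall and tapetum summed to 1.35 to 57.93 CPM at 100 CH and 3.8 to 39.69 CPM at 0 CH. EMS1, a receptor kinase of tapetum specification in Arabidopsis and no marker here, was at 35.72 to 57.78 CPM at 100 CH and 30.6 to 78.62 CPM at 0 CH. Of 17 genes tested on that list none rose (14.9% of all genes) and 1 fell (19.2%), MS188, at 0.0485 to 2.88 CPM at 100 CH and 0.774 to 3.13 CPM at 0 CH (−1.96 ± 0.69, adjusted p = 0.0385), a call lost without the library labelled A323 0 CH replicate 4 (adjusted p = 0.0756). It was also lost without any 1 of A318 100 CH replicates 3 and 4, A323 100 CH replicates 1, 2, 3 and 4, A318 0 CH replicate 3 and A323 0 CH replicate 2, with an adjusted p of up to 0.079, and without A318 100 CH replicate 2 the fall was larger (−2.85, adjusted p = 0.00124).

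Of 15 clock, light and flowering time genes tested 3 rose and 4 fell, shares near the 14.9% and 19.2% of all genes, and 1 rose and 5 fell without the library labelled A323 0 CH replicate 4. TOC1, a core clock repressor, was at 0 to 1.22 CPM at 100 CH and 1.27 to 3.9 CPM at 0 CH (−1.63 ± 0.44, adjusted p = 0.00892). ELF4, of the evening complex, fell to 22.86 to 31.86 CPM at 100 CH, against 39.39 to 105.5 CPM at 0 CH (−1.19 ± 0.22, adjusted p = 0.000779). CIB1, a partner of cryptochrome in Arabidopsis, fell by 1.51 ± 0.27 (adjusted p = 0.000461). The hour of picking is not given in the sources used here. Of 19 cell cycle and replication genes none rose (14.9% of all genes) and 3 fell (19.2%): CYCD3;1, a D-type cyclin, to 25.26 to 40.99 CPM at 100 CH, against 64.27 to 125.2 CPM at 0 CH (−1.30 ± 0.17, adjusted p = 4.65e-05), KRP7, an inhibitor of cyclin-dependent kinases, to 1.22 to 4.73 CPM, against 7.31 to 21.21 CPM at 0 CH (−2.23 ± 0.26, adjusted p = 1.37e-05), and the faint CYCD5;1 (−2.33 ± 0.74, adjusted p = 0.0221). The last call was lost without the library labelled A323 0 CH replicate 4 (−1.68, adjusted p = 0.08) or without A318 0 CH replicate 3 (adjusted p = 0.0611). The summed markers of dividing cells were 12.78 to 27.04 CPM at 100 CH and 14.19 to 28.52 CPM at 0 CH.

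Lipid genes moved in both directions and included some of the largest rises. A pair of neighbouring lipid-transfer-type genes rose most: Prupe.2G139000 ranged from 382.4 to 913.3 CPM at 100 CH (median 418.7) and from 4.39 to 24.04 CPM at 0 CH (median 9.53), a rise of 5.46 ± 0.41 (adjusted p = 1.42e-07). Prupe.2G139500 ranged from 13.46 to 71.28 CPM at 100 CH and from 0 to 2.26 CPM at 0 CH (5.0 ± 0.42, adjusted p = 5.58e-07). Reads could be shared between this pair. FAD5, in Arabidopsis a plastid desaturase of palmitic acid, ranged from 44.27 to 66.97 CPM at 100 CH (median 56.26) and from 6.87 to 10.22 CPM at 0 CH (median 9.52), a rise of 2.7 ± 0.15 (adjusted p = 1.77e-08). CER1, of wax alkane synthesis, rose by 1.05 ± 0.20 (adjusted p = 0.000869). A stearoyl-ACP desaturase gene (Prupe.8G018700) fell to 27 to 41.27 CPM at 100 CH, against 91.12 to 299.7 CPM at 0 CH (−1.99 ± 0.25, adjusted p = 2.33e-05), and the lipid-transfer-type gene Prupe.1G482500 fell by 2.05 ± 0.53 (adjusted p = 0.00717), or by 1.44 without A323 0 CH replicate 1. In all 4 of 15 rose and 2 fell (14.9% and 19.2% of all genes), with a median of 0.16.

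Chaperones did not share a direction: 3 of 20 tested rose and 7 fell (14.9% and 19.2% of all genes), with a median of −0.21, and 5 rose and 8 fell without A323 0 CH replicate 1. HSP90.1, a cytosolic HSP90 chaperone, had 4.05 to 13.54 CPM at 100 CH and 0 to 2.09 CPM at 0 CH (3.90 ± 0.50, adjusted p = 2.92e-05), and the heat shock factor HSFB2B rose by 1.69 ± 0.34 (adjusted p = 0.00137). Genes of small heat shock proteins were among both the falls and the rises. Prupe.2G243800 had 203.4 to 344.9 CPM at 100 CH and 408.6 to 2736 CPM at 0 CH (−1.51 ± 0.35, adjusted p = 0.00369), with the value of 2736 CPM in A323 0 CH replicate 1. Prupe.3G085200 fell by 1.47 ± 0.20 (adjusted p = 6.17e-05) and plastid HSP21 by 1.13 ± 0.23 (adjusted p = 0.00128), whereas the HSP20-type gene Prupe.5G005900 rose by 0.93 ± 0.24 (adjusted p = 0.00705) and Prupe.3G034800 did not pass (0.57 ± 0.32, adjusted p = 0.177). An HSP70 gene (Prupe.7G108000) fell by 1.11 ± 0.35 (adjusted p = 0.0233), a call lost without A323 100 CH replicate 1 (adjusted p = 0.0522) or A318 0 CH replicate 2 (adjusted p = 0.0805).

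Many of the genes that build and lignify the secondary cell wall fell. Of 24 cell wall genes tested 2 rose and 10 fell (median −0.73), of 17 phenylpropanoid and flavonoid genes 2 rose and 11 fell (median −1.43), and of 6 chitinases none rose and 4 fell (median −2.17), where 14.9% of all genes rose and 19.2% fell. Without the library labelled A323 0 CH replicate 4, 10 cell wall genes, 10 phenylpropanoid genes and 4 chitinases fell. FLA11, a fasciclin-like protein of secondary walls in Arabidopsis stems, had 2.76 to 8.42 CPM at 100 CH (median 4.76) and 27.6 to 73.15 CPM at 0 CH (median 50.08). It fell by 3.25 ± 0.29 (adjusted p = 7.92e-07) with no overlap. CESA8, a cellulose synthase subunit of the secondary wall, had 1.42 to 2.79 CPM at 100 CH and 6.62 to 16.34 CPM at 0 CH (−2.44 ± 0.24, adjusted p = 1.96e-06). XTH32, which remodels xyloglucan, fell by 2.06 ± 0.35, the pectin lyase-like genes Prupe.5G161300 and Prupe.1G251200 by 1.96 ± 0.25 and 1.79 ± 0.27, and the expansin EXPA4 (Prupe.2G237000) by 1.87 ± 0.48, the highest adjusted p being 0.0071 for EXPA4.

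On the lignin side LAC4 (Prupe.6G271500), a laccase that polymerises lignin in Arabidopsis, had 2.9 to 7.53 CPM at 100 CH and 11.45 to 55.41 CPM at 0 CH (−2.52 ± 0.31, adjusted p = 2.22e-05). A further LAC4 homologue (Prupe.6G061300) fell by 1.85 ± 0.27 (adjusted p = 9.94e-05). HCT (Prupe.3G101400), which diverts phenylpropanoids towards lignin, had 1.06 to 2.67 CPM at 100 CH and 3.44 to 13.58 CPM at 0 CH (−2.43 ± 0.29, adjusted p = 1.59e-05). The more abundant HCT homologue Prupe.3G101000 went the other way by less than 2-fold, with every 100 CH library above every 0 CH library after scaling. Its raw counts were 527 to 2726 at 100 CH and 168 to 2363 at 0 CH. The alcohol dehydrogenase homologues CAD9 (Prupe.1G360900 and Prupe.6G208100) fell by 1.99 ± 0.23 and 1.85 ± 0.43. Against this direction LAC14 ranged from 35.95 to 68.88 CPM at 100 CH and from 7.12 to 14.88 CPM at 0 CH (2.20 ± 0.21, adjusted p = 1.72e-06), so laccases did not move together. The chitinase-like CTL2, linked to cellulose deposition in Arabidopsis, had 9.2 to 27.96 CPM at 100 CH and 38.65 to 131.5 CPM at 0 CH (−2.69 ± 0.31, adjusted p = 1.23e-05). EP3-type chitinases fell by 3.82 ± 0.75 (Prupe.1G204700), 2.27 ± 0.45 (Prupe.1G204800) and 2.07 ± 0.33 (Prupe.1G080500). The stages overlapped for Prupe.1G204700, whose highest value at 100 CH was 3.42 CPM, in A323 replicate 4, against 2.24 and 0.908 CPM in A323 0 CH replicates 2 and 3. They overlapped for Prupe.1G204800 as well, at 3.82 CPM in A323 100 CH replicate 1, against 2.86 CPM in A323 0 CH replicate 3. Neighbouring EP3 copies can share reads.

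Of 19 redox genes tested 8 fell (19.2% of all genes) and 1 rose (14.9%), with a median of −0.69. The peroxidase Prupe.6G192000 had 0.112 to 0.822 CPM at 100 CH and 1.44 to 6.87 CPM at 0 CH (−2.88 ± 0.51, adjusted p = 0.000444). The glucose-methanol-choline oxidoreductase Prupe.5G089100 fell by 1.90 ± 0.20 (adjusted p = 5.34e-06), peroxidase PA2 by 1.61 ± 0.18 (adjusted p = 6.61e-06), and the peroxidases Prupe.1G081600 and Prupe.2G260800 by 1.41 ± 0.43 and 1.26 ± 0.22. Of 16 sugar and starch genes 4 rose and 3 fell (14.9% and 19.2% of all genes). The hexose carrier STP13 rose by 1.31 ± 0.32 (adjusted p = 0.0049), whereas the faint sucrose synthase SUS2 fell by 1.34 ± 0.28 (adjusted p = 0.00175) and the sucrose carrier SUC4 by 1.06 ± 0.17 (adjusted p = 0.000226). The more abundant sucrose synthase SUS3 went the other way by less than 2-fold, with every 100 CH library above every 0 CH library after scaling. Its raw counts were 777 to 4512 at 100 CH and 197 to 4282 at 0 CH. Of 33 chromatin and small RNA genes 2 rose and 2 fell (14.9% and 19.2% of all genes), with a median of 0.06, and 5 rose and 4 fell without A323 0 CH replicate 1. HEN1, the methyltransferase that protects small RNAs, ranged from 66.76 to 117.1 CPM at 100 CH and from 9.16 to 33.94 CPM at 0 CH (2.06 ± 0.22, adjusted p = 4.73e-06), and the SET-domain gene SDG31 fell by 1.17 ± 0.23 (adjusted p = 0.000974). None of 8 photosynthesis genes rose (14.9% of all genes) and 2 fell (19.2%), among them chlorophyllase CLH1 (−1.51 ± 0.44, adjusted p = 0.0145), beside summed green-tissue markers of 334.7 to 575.6 CPM at 100 CH and 308 to 1259 CPM at 0 CH. The part of green tissue in these values was not tested. Without A323 0 CH replicate 1, 2 photosynthesis genes rose and 3 fell.

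**Figure D3:**
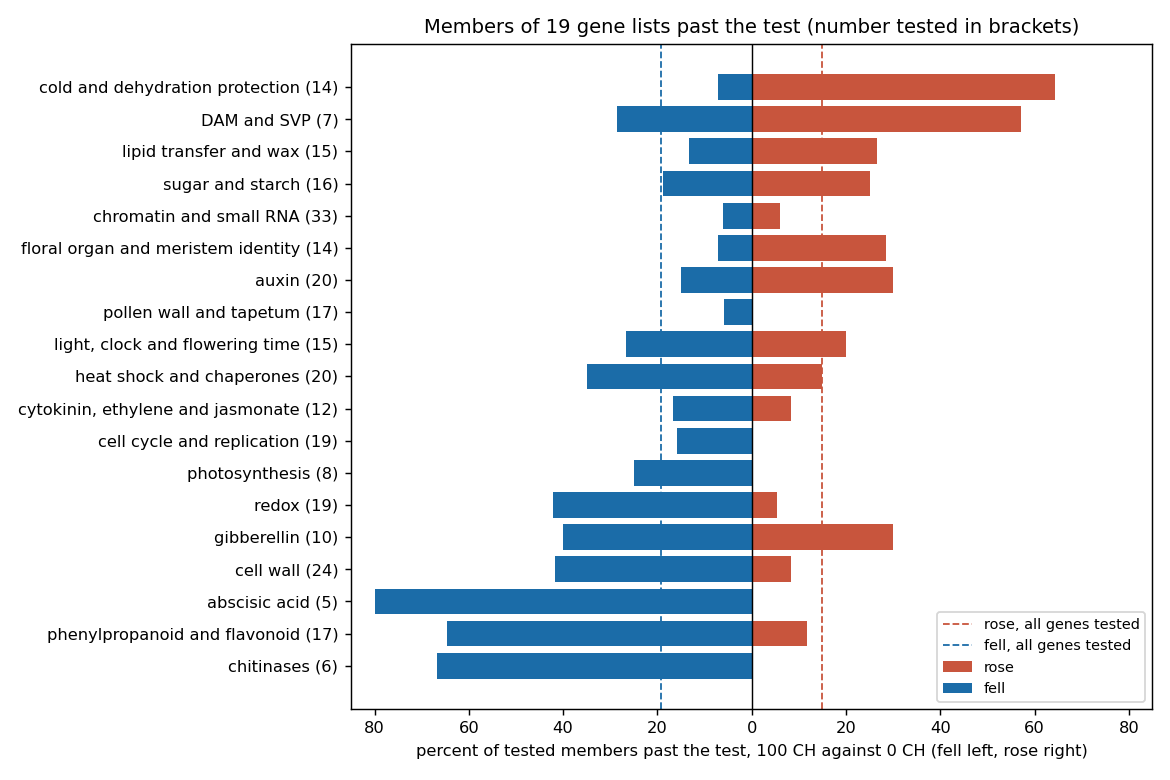
Share of the tested members of each of 19 gene lists that rose (right) or fell (left) at 100 CH against 0 CH, in percent, with the number tested in brackets and dashed lines at the shares of all 18561 genes (14.9% rose, 19.2% fell). The cold and dehydration list is at the rising end with 9 of 14, and abscisic acid genes (4 of 5), chitinases (4 of 6) and phenylpropanoid genes (11 of 17) are at the falling end.

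Outside the lists, the annotated genes of largest change were led by a pectin methylesterase inhibitor-type gene (Prupe.2G279700), which ranged from 967.8 to 1661 CPM at 100 CH (median 1280) and from 57.1 to 165.5 CPM at 0 CH (median 74.62). It rose by 3.80 ± 0.29 (adjusted p = 1.66e-07). UGT84A1, a glucosyltransferase of phenolic acids in Arabidopsis, rose by 3.11 ± 0.23 (adjusted p = 1.44e-07), DTA2 by 2.88 ± 0.26 and the nudix hydrolase NUDT17 by 2.76 ± 0.28. The largest fall was that of LOX2, in Arabidopsis a plastid lipoxygenase of jasmonate synthesis, which had 1.22 to 3.88 CPM at 100 CH (median 1.77) and 16.79 to 48.57 CPM at 0 CH (median 30.91). It fell by 3.88 ± 0.28 (adjusted p = 9.99e-08). An arabinogalactan protein, AGP18, fell by 3.13 ± 0.53 (adjusted p = 0.000342), and its highest 0 CH value, 420.9 CPM, was in A323 replicate 1, the others being at 45.91 to 195.4 CPM. Without that library the fall was smaller (−2.37, adjusted p = 5.63e-05). A respiratory burst oxidase homologue (Prupe.5G138300), of the family that makes apoplastic superoxide, had 5.96 to 9.34 CPM at 100 CH and 35.82 to 61.5 CPM at 0 CH (−2.62 ± 0.17, adjusted p = 3.61e-08). The berberine-type oxidase Prupe.4G098300 fell by 2.67 ± 0.42, or by 2.05 without the library labelled A323 0 CH replicate 4. Prupe.3G061300 fell by 2.42 ± 0.39, the terpenoid cyclase Prupe.3G026800 by 2.40 ± 0.47 and the Rossmann-fold gene Prupe.6G251400 by 2.38 ± 0.19. Genes of this paragraph were chosen among those with no overlap.

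Genes with no annotation here changed further still. Prupe.1G021600 ranged from 53.2 to 189.9 CPM at 100 CH and from 0.27 to 4.96 CPM at 0 CH (6.31 ± 0.51, adjusted p = 3.06e-07). Its identifier neighbours that of ELIP1 (Prupe.1G021500), and both genes were highest in A323 100 CH replicate 3. Whether they share reads was not tested. Prupe.3G021100 ranged from 835.3 to 1134 CPM at 100 CH and from 2.51 to 29 CPM at 0 CH (6.12 ± 0.50, adjusted p = 4.1e-07). In the other direction Prupe.3G131700 had 0.486 to 1.23 CPM at 100 CH and 19.07 to 61.46 CPM at 0 CH (−5.59 ± 0.32, adjusted p = 1.77e-08), and Prupe.2G121500 had 0.67 to 4.52 CPM at 100 CH and 6.19 to 217.2 CPM at 0 CH (−5.38 ± 0.75, adjusted p = 6.46e-05). The highest of these values was that of the library labelled A323 0 CH replicate 4, without which the change was −4.64 (adjusted p = 0.000134).

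Whether the cultivars changed by different amounts was asked with an interaction of cultivar and stage. No gene of 19553 passed (0%) in edgeR, where 463 had an unadjusted p under 0.05, and DESeq2 called 0 as well. The change in A323 minus that in A318 was larger than 2 SEs for 4 of 99 named genes tested, each with an adjusted p of 0.9998 in edgeR: −1.12 ± 0.30 for Prupe.3G085200, 1.16 ± 0.46 for NUDT17, −1.32 ± 0.61 for LAX2 (Prupe.1G503100) and 0.95 ± 0.45 for DTA2. The difference was −0.21 ± 0.46 for CAP160, 0.13 ± 0.52 for LEA, 0.16 ± 0.39 for DAM5, 0.06 ± 0.36 for DAM4, 0.02 ± 0.35 for GA2OX and −0.01 ± 0.44 for CAL, and 0.93 ± 0.52 for GolS4. With SEs of this size, a difference of 2-fold between the cultivars was not detectable for most of these genes.

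Low chill buds gave the same comparison in libraries not used so far. In A209 and A340, 3130 of 18293 genes rose (17.1%) and 3503 fell (19.1%). Of the 2750 genes that rose in high chill buds and were tested in both classes, 1913 also rose in low chill buds (69.6%), which is 61.3% of the 3123 that rose there. Of the 3439 that fell, 2429 also fell in low chill buds (70.6%), which is 70.3% of the 3453 that fell there. The opposite call was made at 1 of the rises and 12 of the falls. The cold and dehydration list counted 8 rises and 1 fall among 14 genes in low chill buds, with LEA at 3.21 ± 0.24, COR47 at 1.54 ± 0.17 and FAD5 at 3.03 ± 0.19. The difference in change itself, high minus low chill, passed at 107 of 21388 genes (0.5%), 32 with a larger and 75 with a smaller value in high chill, where 1984 had an unadjusted p under 0.05. Of the 75, 22 fell in both classes and 12 fell in high chill and rose in low chill buds. Without the library labelled A323 0 CH replicate 4, 29 and 59 passed. Without A318 100 CH replicate 4, 17 and 37 passed, and without A323 0 CH replicate 3, 32 and 116 passed.

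Among the genes that differed were 1 of 7 DAM and SVP genes, DAM6, and 1 of 10 gibberellin genes tested, GA2OX. High chill here means A318 and A323 and low chill A209 and A340, so chill class cannot be told apart from other differences between these cultivars. The change of GA2OX was 1.38 ± 0.17 in high chill and −0.17 ± 0.15 in low chill buds, a difference of 1.53 ± 0.18 (adjusted p = 2.51e-05). DAM6 changed by 0.53 ± 0.18 in high chill buds and fell by 0.46 ± 0.11 in low chill buds, a difference of 0.97 ± 0.18 (adjusted p = 0.0081). DAM5 changed by 1.18 ± 0.19 in high chill and −0.04 ± 0.23 in low chill buds, but the difference of 1.21 ± 0.30 missed the threshold (adjusted p = 0.0623), as did that of DAM3 (0.79 ± 0.20, adjusted p = 0.084). DAM4 rose in both, by 1.76 ± 0.17 in high chill and 1.23 ± 0.10 in low chill buds, and the difference of 0.51 ± 0.19 did not pass (adjusted p = 0.36). GolS4 changed by 1.55 ± 0.28 in high chill and −0.23 ± 0.20 in low chill buds (difference 1.68 ± 0.32, adjusted p = 0.00899), and ELIP1 rose in both but further in high chill buds (5.86 ± 0.33 against 3.53 ± 0.34, difference 2.29 ± 0.42, adjusted p = 0.00579). Prupe.1G021600 (difference 3.09 ± 0.58, adjusted p = 0.00651) and Prupe.3G131700 (−1.82 ± 0.35, adjusted p = 0.00901) moved the same way in both classes and further in high chill buds. With the replicate number as a block, the differences of DAM6, ELIP1 and Prupe.3G131700 no longer passed.

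**Figure D4:**
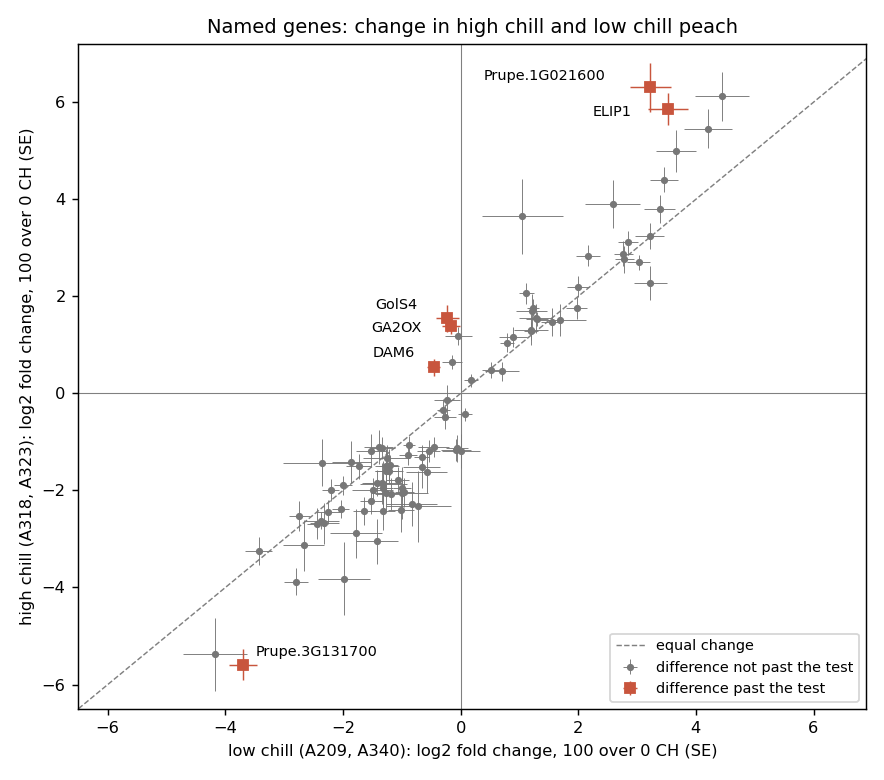
Log2 fold change of the named genes from 0 to 100 CH in high chill buds (y axis) against that in low chill buds (x axis), with SE bars; the dashed line marks equal change. Squares are the 6 genes whose difference passed the test, among them GA2OX (1.38 in high chill and −0.17 in low chill buds) and DAM6 (0.53 and −0.46).

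Seen over the season, several of these genes were at their highest mean of the 5 stages at 100 CH. These levels are means ± SD of each cultivar's libraries after scaling over all 69 peach libraries, and are a description with no test. The A323 mean at 0 CH includes the library labelled replicate 4. In A318 DAM6 went through 1150 ± 210, 1601 ± 131, 210 ± 31.4, 173 ± 104 and 21.9 ± 3.39 CPM at 0, 100, 600 and 1000 CH and pre-bloom, and in A323 through 1128 ± 142, 1807 ± 199, 532 ± 51, 117 ± 38.8 and 26.9 ± 22.2 CPM. Low chill buds held less of it at the same chill totals, with 315.5 ± 28.2, 211.5 ± 21.9 and 25.7 ± 33.3 CPM in A209 and 292.6 ± 16.2, 251.4 ± 17 and 10.2 ± 2.93 CPM in A340 at 0, 100 and 600 CH. DAM5 had 351 ± 48.9, 783 ± 99.3 and 106 ± 24 CPM in A318 and 30.4 ± 15.6, 37.9 ± 2.97 and 10.5 ± 13.7 CPM in A209 at the same stages. DAM4 parted the high chill cultivars later: at 0, 100 and 600 CH it was 156 ± 34.8, 539 ± 70 and 331 ± 31 CPM in A318, and 158 ± 32.8, 565 ± 80.5 and 670 ± 102.9 CPM in A323. GA2OX in A318 was 124 ± 26.2 CPM at 0 CH, 338 ± 21.4 CPM at 100 CH and 58.3 ± 8.39 CPM at 600 CH.

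CAP160 in A318 was 109 ± 17.7, 2627 ± 276, 775 ± 147, 300 ± 196 and 28.8 ± 8.21 CPM over the 5 stages, so the 100 CH buds held its highest mean level. CAL stayed up for longer, with 33.8 ± 6.88, 255 ± 20.7 and 270 ± 36.8 CPM in A318 and 35.3 ± 13.2, 261 ± 26.6 and 477 ± 94.5 CPM in A323 at 0, 100 and 600 CH. Among genes that fell, LOX2 stayed low after 100 CH in both cultivars, its means at the 4 later stages lying between 1.64 and 6.92 CPM, against 43.4 ± 9.56 CPM in A318 and 25 ± 7.83 CPM in A323 at 0 CH. FLA11 was 45.8 ± 24.2 CPM at 0 CH, 6.87 ± 1.95 CPM at 100 CH and 1.37 ± 0.90 CPM at 600 CH in A318, and 27.9 ± 17.9 CPM at pre-bloom.

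**Figure D5:**
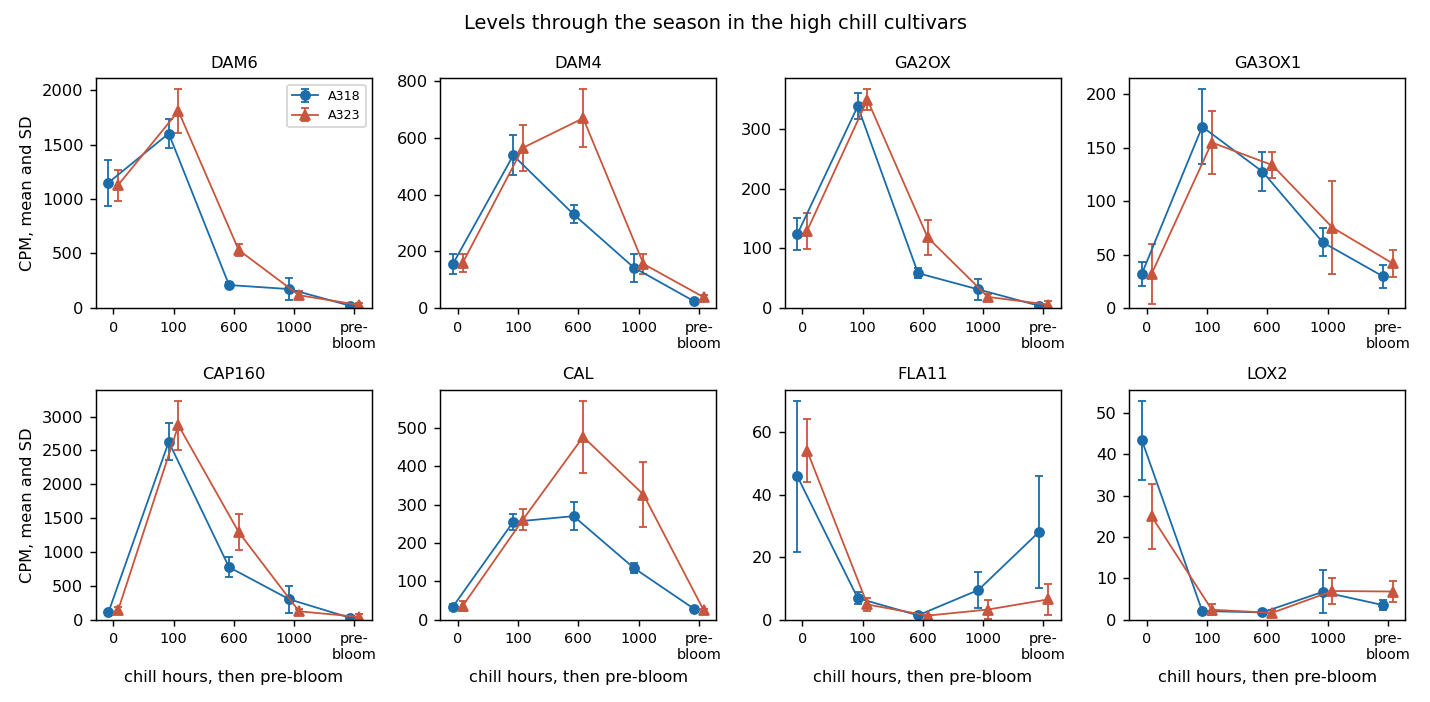
Mean level ± SD of 8 genes in A318 (circles) and A323 (triangles) at 0, 100, 600 and 1000 CH and pre-bloom, in CPM on linear axes; stages are evenly spaced and not to scale in time, and lower error bars stop at 0. DAM6, GA2OX and CAP160 are at their highest mean at 100 CH in both cultivars, and FLA11 and LOX2 are highest at 0 CH.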

How the data were processed

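Floral bud RNA of 14 libraries was sequenced as paired reads by the study. Per its methods, the authors trimmed reads with skewer, removed ribosomal reads, aligned to the Prunus persica genome with STAR 2.5.3a and counted reads per gene with HTSeq, with the DAM genes counted on manually curated models; the strand setting is not given in the sources used here. The study reports rRNA contamination in most peach libraries. In its PERMANOVA the rRNA share was a significant factor, without a significant interaction with genotype or time point. That share was not part of the fits here, and its part in the results was not tested. The deposited values are raw counts per gene, not normalized. All 26872 genes of a file named a gene. Libraries were grouped by cultivar and stage labels, and the apricot files were not used.

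Counts were tested with edgeR 4.0.16 (R 4.3.3): TMM scaling, filterByExpr (minimum count 10, minimum total count 15), glmQLFit and glmQLFTest with cultivar plus stage over the 14 libraries, a cultivar by stage interaction, and a contrast of high and low chill changes over 30 libraries. P-values were adjusted over all genes tested by the Benjamini-Hochberg method at a threshold of 0.05. The scripts were tested on simulated data with 200 changed genes among 18346, where 38.4% of 2-fold and 92.9% of 4-fold changes were called in the right direction. In the real data 6335 genes were called, which makes the adjusted threshold less strict, so these shares are not the detection rates here. A gene that did not pass may still have changed by 2-fold. Libraries of 1 cultivar and stage came from separate clonal trees, but the same trees may have been sampled at both stages. The fits above had no term for the tree and treated all libraries as independent. Their p-values therefore measure the spread between libraries of 1 genotype, with the library labelled A323 0 CH replicate 4 in doubt. These p-values do not measure the spread between cultivars of a chill class. DESeq2 1.42.0, other scalings, filters and library sets were alternatives. No library had another's counts (chi-square per degree of freedom 12.5 to 211 over 18 pairs of 1 group).

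The 19 gene lists (344 members, 291 tested, 53 not tested; 48 rose and 74 fell) and the members were chosen with earlier results of these data known, so a list's direction is not independent evidence. Gene names and best Arabidopsis hits were copied from the study for 2954 genes, and 0 of the tested IDs were found in the RefSeq table. Named are every DAM and cold gene, list members past the test with more than 2-fold change (at most 6 a list, the largest), the 10 largest rises and 10 largest falls with a known name, a mean of at least 10 CPM and no overlap, and 2 unnamed genes in each direction. AP1, AG, AP3, LFY, AGL6 and STK are named as floral markers. GA2OX8, PIN3, PIN6, EMS1, Prupe.8G163100, Prupe.5G005900, Prupe.3G034800, the HCT homologue Prupe.3G101000 and SUS3 were added after their values were seen. Genotype genes were those that separated a cultivar from each other one at an adjusted p under 0.001 and a log2 difference above 2 in 600 CH, 1000 CH and pre-bloom libraries, limits chosen after seeing the data. Because the study counts its A323 replicates differently from the labels, A323 100 CH replicate 3 was also compared with A318: it was nearer to 100 than to 600 CH at 94.3% of 1972 genes, against 87.2% to 96% in the other A323 100 CH libraries.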

Additional observations from a re-analysis of the deposited data

Results flagged for a closer look

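Of 198 groups of 4 replicates of A323 (99 named genes at 100 CH and at 0 CH), 22 held 1 library far from the other 3 by Dixon's ratio; chance flags about 1 group in 20. In A323 0 CH replicate 1 there were 11. It was above the others for the small heat shock gene Prupe.2G243800 (2736 CPM, others 474.6 to 741.8), GA3OX1 (76.33 CPM, others 13.22 to 19.41), the GASA-type gene Prupe.3G279800 (1488 CPM, others 174 to 301.1), PIN5 (1.908 CPM, others 0 to 0.1723), CYCD3;1 (125.2 CPM, others 64.27 to 74.42), the peroxidase Prupe.2G260800 (337.7 CPM, others 133.7 to 142.3), the lipid-transfer-type gene Prupe.1G482500 (24.81 CPM, others 2.423 to 5.819), AGP18 (420.9 CPM, others 49.39 to 65.13) and Prupe.3G061300 (55.72 CPM, others 14.91 to 17.86). It was below the others for DAM5 (230.9 CPM, others 389.4 to 397.3) and GA2OX (87.39 CPM, others 130.6 to 139.2). The library labelled A323 0 CH replicate 4 stood apart for the EP3 chitinase Prupe.1G204800 (12.91 CPM, others 2.86 to 3.816) and the berberine-type oxidase Prupe.4G098300 (57.58 CPM, others 8.213 to 9.724).

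At 100 CH, A323 replicate 4 was low for DAM1 (2.625 CPM, others 4.427 to 4.672), ICE1 (11.87 CPM, others 19.38 to 20.84) and SUS2 (1.027 CPM, others 1.784 to 1.841) and high for CTL2 (27.96 CPM, others 9.203 to 9.822) and CLH1 (7.189 CPM, others 1.525 to 1.946). A323 replicate 3 was high for ELIP1 (165.6 CPM, others 66.53 to 70.95) and the GASA-type gene Prupe.4G257500 (12.08 CPM, others 4.743 to 5.591). A323 replicate 2 was high for Prupe.5G193400 (0.8185 CPM, others 0.2282 to 0.3243), and A323 replicate 1 for STP13 (233.8 CPM, others 94.21 to 107.9).

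The change from 0 to 100 CH differed between high and low chill buds for 6 named genes, by the test of the difference itself: DAM6 (0.9657 on the log2 scale, high minus low), GolS4 (1.675), ELIP1 (2.29), GA2OX (1.528), Prupe.1G021600 (3.091) and Prupe.3G131700 (−1.816).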

How the results depend on the processing

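The numbers of genes that rose (2771) and fell (3564) stayed within 1.5 times under DESeq2 (3010 and 4804), DESeq2 size factors, no filter, one fit of all peach libraries, and each library left out (2328 to 3359 rose, 3071 to 3744 fell). They moved with 1 cultivar fitted alone (A318: 753 and 1366; A323: 1255 and 1738), with a test against a change of 2-fold (296 and 809), and, for rises, with a 2-fold change asked for as well (852). High minus low chill calls (32 larger, 75 smaller) were 76 and 149 with DESeq2 and ranged from 17 to 47 and from 37 to 116 with a library left out. The A323 minus A318 difference stayed at 0 to 0. Low chill calls ranged from 2822 to 3314 rises and from 3092 to 3554 falls. The causes were not tested. No named gene past the test changed direction. Of those not past it, HVA22A (−0.33) reached 0.03 and the stress enhanced protein 2 homologue (−0.14) reached 0.11 in an alternative run, and neither passed in any. Of 94 named genes past the test, 49 passed under every alternative run; the test against 2-fold lost 42, A318 alone 30 and A323 alone 15. None of the 14 high chill libraries fell below 0.25 of the median peach total, so that alternative was not run for the main comparison. Among the low chill libraries A340 0 CH replicate 3 did (1615959 counts). Without it the high minus low chill calls were 26 larger and 62 smaller. Some 1000 CH libraries behind the season levels were also below that limit, such as A318 replicate 1 (529219 counts). Leaving out A323 0 CH replicates 1 and 4 together, chosen after seeing the data, gave 3049 rises and 3222 falls and lost 6 named genes. Depth limits genes near 1 CPM, such as DAM2.

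The sources used here do not say whether a replicate number marks the same tree at both stages. Deviations of same-numbered libraries from their group means correlated at −0.578 to 0.351 in 6 pairs, and 2 of 6 correlated best with their own number. With so few pairs and such small groups, these values cannot decide whether trees were sampled again. With the replicate number as a block, 2328 genes rose and 2584 fell, 13 and 25 differed between chill classes, 0 differed between A323 and A318, low chill buds had 2663 rises and 2924 falls, and 11 named genes were lost. The high minus low difference was then lost for DAM6, ELIP1 and Prupe.3G131700, and kept under all 34 alternatives for GA2OX, GolS4 and Prupe.1G021600.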
